A study of Homo sapiens with 6 samples.

Results

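The results concern 10 genes of the cornified envelope and the epidermal barrier, chosen by name for their roles, with earlier results of these data known. They are the crosslinking enzyme TGM1, the envelope proteins IVL, FLG, SCEL, PPL and EVPL, the desquamation protease KLK7, and the regulators KLF4, GRHL3 and OVOL1. All 10 were found among the 22152 gene rows analysed. All 10 also passed the filter on low values, a normalised count of at least 10 in at least 3 samples, which left 14795 genes for testing.

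The cornified envelope is a shell of crosslinked protein that replaces the plasma membrane of keratinocytes as they die at the skin surface. Periplakin, envoplakin and involucrin form an early scaffold under the membrane, transglutaminases join further proteins and lipids to it, and filaggrin packs the keratin filaments inside. Kallikrein proteases later cut the desmosomes so that the dead cells are shed, and transcription factors of the KLF, grainyhead and OVOL families drive this program.

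HaCaT cells, a human keratinocyte line that became immortal spontaneously, were transfected with a miR-21-3p mimic or with a negative control (NC) mimic. A mimic is a synthetic RNA duplex that raises the amount of a mature miRNA in the cell, and miR-21-3p comes from the passenger arm of the miR-21 hairpin. Both mimics were used at 1 nM, and RNA, polyA RNA by the labels, was sequenced 48 h later from 3 replicates per group. The comparison asked which transcripts differed after transfection of the miR-21-3p mimic. The level of miR-21-3p was not measured in these libraries. The study checked it by RT-qPCR, with a higher dose and an earlier time in the figure legend. All 6 libraries came from 1 immortalised line grown in serum-containing medium, without the layers of a stratified epidermis. The replicates are called biological without saying whether culture, passage or day separated them, so the p-values measure only the spread between these samples, which may be technical.

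The deposited values were read counts divided by a size factor for each library, called normalised counts here. Read totals were recovered from these values, which have 3 significant digits, so they are estimates. They came to 24402815, 24528392 and 26171067 reads assigned to genes in the NC libraries. In the miR-21-3p libraries they came to 24808271, 24974979 and 27984002 reads, so depth differed little between the groups. KLF4, with the fewest reads of the 10 genes, was covered by about 4947 recovered reads over the 6 libraries.

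NC replicate 2 was the NC library nearest to the miR-21-3p libraries. On the first principal component, which held 54.8% of the variance over genes with a mean normalised count of at least 100, it scored -1.10, against -16.0 and -11.0 for NC replicates 1 and 3. The miR-21-3p libraries scored 8.88, 4.93 and 14.3, so NC replicate 2 lay between the groups. All pairs of replicates differed by more than sampling noise, with a chi-square per degree of freedom from 1.92 to 4.06. Among the NC libraries it was 4.06 for replicates 1 and 2, 2.57 for replicates 1 and 3 and 2.45 for replicates 2 and 3, so by this measure replicate 1 was as far from the others as replicate 2. NC replicate 2 differed from the miR-21-3p libraries by 2.82, 2.85 and 3.76, less than NC replicate 1 did (6.44, 5.51 and 8.85) or NC replicate 3 (4.92, 3.88 and 7.07). The share of counts from mitochondrial genes was 9.01%, 8.91% and 9.42% in the NC libraries and 8.40%, 8.61% and 8.33% in the miR-21-3p libraries. The groups did not overlap in this share, and its part in the results was not tested. The main results use all 6 libraries. For the cornified envelope and barrier genes, values without NC replicate 2 are given beside them, and calls lost on leaving out another library are named. No such values are given for single markers or related genes. For the related genes only counts of calls are given, so which of their calls were lost is not shown. Because NC replicate 2 lay nearest to the miR-21-3p libraries, leaving it out tends to widen the differences between groups. A call gained or strengthened without it is therefore not read as support.

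The keratinocyte label was checked against marker genes. Of 12 keratinocyte markers, 11 had a row, all were tested, and none was at 0. Their summed normalised counts were 374590, 357280 and 373480 with NC and 373260, 384320 and 356560 with miR-21-3p, and the groups overlapped. KRT5, a basal keratin, was the most abundant of them. Of these markers KRT6A, a keratin of activated keratinocytes, rose by 0.34 on the log2 scale (limma, Benjamini-Hochberg adjusted p = 0.00208), and ITGB4, a hemidesmosome integrin, had a log2 fold change of -0.26 (limma, adjusted p = 0.0385).

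Of the markers of other skin cells, few had a row. For melanocytes 2 of 6 markers had a row, with sums of 631, 630 and 640 for NC and 586, 616 and 585 for miR-21-3p, mostly from MITF. For fibroblasts 1 of 7 had a row, COL1A1, at 560, 390 and 478 with NC and 372, 378 and 364 with miR-21-3p (limma, adjusted p = 0.0641). The 1 of 7 immune markers with a row, CD14, lay at 89.6, 58.7 and 79.1 with NC and 91.8, 92.2 and 69.1 with miR-21-3p. For endothelial cells 2 of 5 had a row, and VWF was the more abundant. Their sums were 1197, 1087 and 1119 with NC and 877, 925 and 883 with miR-21-3p. Of that pair CDH5, an endothelial cadherin, fell from 477, 286 and 393 to 165, 178 and 122, a log2 fold change of -1.30 (limma, adjusted p = 0.00262). VWF stayed between 712 and 801 in all 6 libraries. No marker with a row was at 0 in all libraries, the other markers were not analysed here, and the part of these marker changes in the barrier gene results was not tested. All 6 libraries came from 1 keratinocyte line, so these counts are not read as numbers of other skin cells.

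With miR-21-3p, 3 of the 10 genes fell and 1 rose at an adjusted p under 0.05. The genes that fell were TGM1, FLG and SCEL (changes of -13.3% to -18.3%), and KLK7 rose by 19.3%. Across all 14795 genes tested, 6.11% were called higher, 4.66% were called lower and 10.8% were called in either direction (limma, Benjamini-Hochberg over all genes). The 1 gene called higher lies near that background. The 3 called lower lie above theirs, but 10 genes are too few to set apart from the rest on such counts. The groups did not overlap for 5 of the 10 genes, and for 31.3% of all genes tested, so this alone says little about a gene.

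The changes were small beside the level of the genes. The median log2 fold change of the 10 genes was 0.03, against 0.00439 over all genes tested, with 6 genes on the positive side and 4 on the negative side. The median absolute log2 fold change was 0.126 for the 10 genes and 0.110 for all genes. Without NC replicate 2 the counts were 2 higher and 3 lower among the 10 genes, and 1627 higher and 1330 lower among all genes, against 904 and 689 with all libraries. Leaving out NC replicate 1 left 0 higher and 1 lower of the 10, with 313 higher and 229 lower among all genes. Without NC replicate 3 the 10 genes had 0 and 0 (all genes 95 and 81), without miR-21-3p replicate 3 also 0 and 0 (all genes 202 and 163), and without miR-21-3p replicate 1 they had 1 and 0 (all genes 146 and 131). The loss of calls among the 10 genes thus came with a loss among all genes. At an unadjusted p under 0.05 with all libraries, limma counted 2 of the 10 genes higher and 3 lower, against 15.3% and 13.2% of all genes. On the recovered reads edgeR and DESeq2 each called 1 higher and 3 lower after adjustment, against 5.95% and 5.16% of all genes with edgeR and 6.14% and 5.03% with DESeq2. Here and below, the DESeq2 shares are of 14256 genes, and those of limma and edgeR are of 14795.

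**Figure D1:**
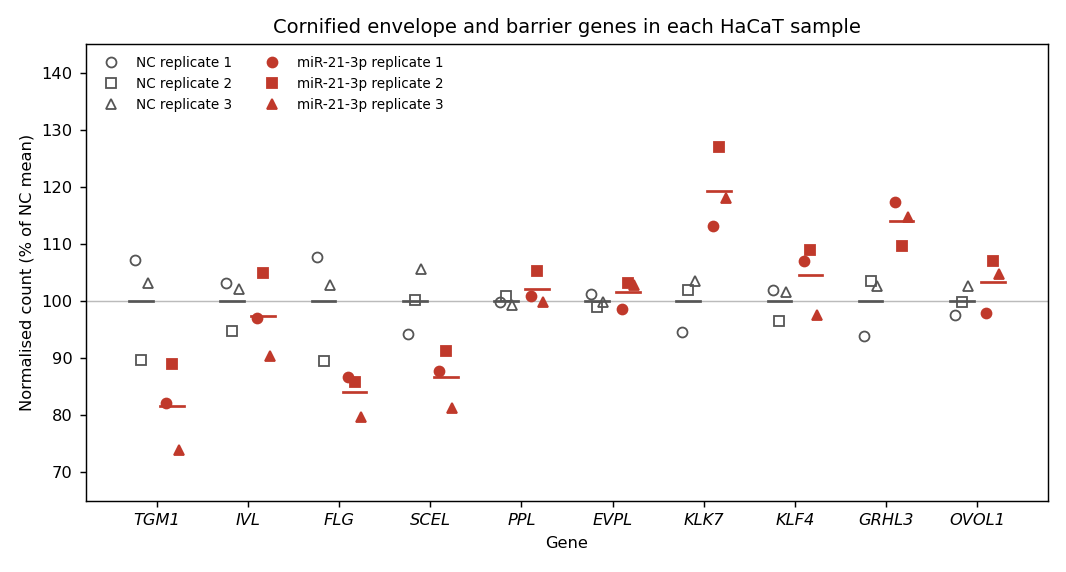
Normalised count of each of the 10 genes in each library, as a percentage of the NC mean of that gene (vertical axis), with genes along the horizontal axis in the order of their roles. Open grey symbols are the 3 NC libraries, filled red symbols the 3 miR-21-3p libraries, symbol shape gives the replicate number and short bars are group means. All red points lie below all grey points for TGM1, FLG and SCEL and above them for KLK7 and GRHL3, with the narrowest gap, 0.629% of the NC mean, for TGM1.

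TGM1 encodes transglutaminase 1, the membrane-bound enzyme that crosslinks envelope proteins and attaches ceramides to them. Its normalised count was 3410, 2850 and 3280 in the NC libraries and 2610, 2830 and 2350 in the miR-21-3p libraries. The lowest NC value, that of replicate 2, lay just above the highest mimic value, and the other NC values lay clear of all mimic values. The means were 3180 ± 293 with NC and 2597 ± 240 with miR-21-3p (SD, n = 3). TGM1 fell by 18.3%, with a 95% interval of -27.1% to -8.56%. On the log2 scale this was -0.29 (SE 0.0752), with a limma adjusted p of 0.0301. Without NC replicate 2 it was -0.37 (limma, adjusted p = 0.00148).

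The TGM1 call was lost on leaving out any of 4 libraries. The limma adjusted p was 0.112 without NC replicate 1, 0.123 without NC replicate 3, 0.102 without miR-21-3p replicate 1, 0.116 without miR-21-3p replicate 3 and 0.142 with a constant variance prior. Its log2 fold change stayed negative, between -0.37 and -0.22 over 17 alternative settings, and the ends of this range came from leaving out 1 library.

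FLG encodes profilaggrin, which is cut into filaggrin monomers that bundle keratin filaments and are then broken down into natural moisturising factor. The libraries gave it normalised counts of 4140, 3440 and 3950 with NC and 3330, 3300 and 3060 with miR-21-3p. All mimic values lay below all NC values, and NC replicate 2 was again the NC library nearest to the mimic group. FLG fell by 15.8%, with a 95% interval of -23.6% to -7.13%. Its log2 fold change was -0.25 (SE 0.0648, limma, adjusted p = 0.0321), and it was -0.33 without NC replicate 2 (limma, adjusted p = 0.000818). The limma adjusted p was 0.114 without NC replicate 1, 0.131 without NC replicate 3, 0.0878 without miR-21-3p replicate 1, 0.120 without miR-21-3p replicate 3 and 0.142 with a constant variance prior. In the GENCODE 29 annotation 5.52% of the exonic bases of FLG lie opposite exons of the antisense gene FLG-AS1. Whether the counting used strand is not given in the sources used here, so reads of FLG and FLG-AS1 may not have been told apart there.

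SCEL encodes sciellin, a precursor of the envelope with repeated domains. Normalised counts were 5660, 6020 and 6340 with NC and 5270, 5480 and 4880 with miR-21-3p. All mimic values lay below all NC values, and here NC replicate 1, not replicate 2, was the NC library closest to the mimic group. SCEL fell by 13.3%, with a 95% interval of -20.2% to -5.74%. It had a log2 fold change of -0.21 (SE 0.0553, limma, adjusted p = 0.0358), and without NC replicate 2 it was -0.20 (limma, adjusted p = 0.0279). The limma adjusted p was 0.163 without NC replicate 3, 0.111 without miR-21-3p replicate 1, 0.136 without miR-21-3p replicate 3, 0.0582 with the replicate number as a block and 0.143 with a constant variance prior, so the call was lost in 5 of 17 alternative settings. SCEL shares 3.42% of its exonic bases with SCEL-AS1 on the opposite strand, under the same limit as FLG.

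IVL encodes involucrin, a major transglutaminase substrate of the early envelope. IVL had normalised counts of 9700, 8910 and 9610 with NC and 9120, 9870 and 8500 with miR-21-3p. The groups overlapped, since the highest value of all was miR-21-3p replicate 2 and the lowest was miR-21-3p replicate 3. A log2 fold change of -0.04 (95% interval -0.164 to 0.0852) did not pass the test (limma, adjusted p = 0.688). It became 0.01 without miR-21-3p replicate 3 (limma, adjusted p = 0.920), so its sign rested on 1 library, and it was -0.08 without NC replicate 2 (limma, adjusted p = 0.377).

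FLG and IVL lie in the epidermal differentiation complex of chromosome 1, and the 250 bases before their transcription starts are shown with those of SCEL because FLG and SCEL fell while IVL was not called. The sequences are from RefSeq on GRCh38.p14, where 6 of the 10 genes matched an entry, with 9 windows. Capitals mark matches on either strand to the AP-1 letters TGANTCA or to the core promoter letters TATAAA. The windows are FLG at chr1:152325240-152325489 on the minus strand, IVL at chr1:152908296-152908545 on the plus strand and SCEL at chr13:77535456-77535705 on the plus strand.
FLG: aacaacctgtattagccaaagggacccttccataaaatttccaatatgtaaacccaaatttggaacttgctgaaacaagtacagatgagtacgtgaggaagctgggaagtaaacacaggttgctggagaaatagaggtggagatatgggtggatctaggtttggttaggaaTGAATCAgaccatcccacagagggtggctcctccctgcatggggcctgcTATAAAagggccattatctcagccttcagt
IVL: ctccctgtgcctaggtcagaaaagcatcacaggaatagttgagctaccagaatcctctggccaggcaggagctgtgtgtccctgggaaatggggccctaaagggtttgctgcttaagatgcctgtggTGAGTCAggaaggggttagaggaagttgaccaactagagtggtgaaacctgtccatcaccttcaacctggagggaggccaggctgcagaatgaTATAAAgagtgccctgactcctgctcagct
SCEL: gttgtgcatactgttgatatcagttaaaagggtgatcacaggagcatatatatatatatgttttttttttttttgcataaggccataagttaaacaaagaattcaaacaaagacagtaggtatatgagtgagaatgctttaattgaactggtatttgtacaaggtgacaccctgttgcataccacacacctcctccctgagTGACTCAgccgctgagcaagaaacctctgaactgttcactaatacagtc

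Each of these windows held 1 match to TGANTCA. It lay 79 to 73 bases before the start in FLG, 123 to 117 bases before it in IVL and 49 to 43 bases before it in SCEL. FLG and IVL also held TATAAA at 30 to 25 bases before the start, which SCEL lacked. Of all 35116 windows of the same length, 6.57% held TGANTCA and 10.7% held TATAAA, and of the 13194 windows of genes tested here 4.59% and 5.74% did. Over all tested genes with a window, limma called 7.46% of the 563 genes with TGANTCA lower and 6.93% higher, against 4.51% and 7.18% of the 8445 genes without it. For TATAAA the shares were 6.33% lower and 6.91% higher with it against 4.56% and 7.18% without, and for the KLF letters GGGNGTGG 5.83% and 6.94% against 4.31% and 7.23%. For the grainyhead letters AACCNGTT they were 4.58% and 9.8% against 4.7% and 7.11%. The share called lower was thus higher with the letters for 3 of the 4 motifs searched, not for AP-1 alone, and these differences were not tested. A match is a description of letters, not evidence of binding.

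PPL and EVPL encode periplakin and envoplakin, plakin family proteins that join in the scaffold beneath the membrane and link it to desmosomes and keratin. The normalised count of PPL was 29600, 29900 and 29400 with NC and 29900, 31200 and 29600 with miR-21-3p. That of EVPL was 8900, 8700 and 8770 with NC and 8670, 9070 and 9040 with miR-21-3p. The groups overlapped for both genes, and their NC libraries were the closest of the 10 genes, with coefficients of variation of 0.849% and 1.2%. The log2 fold change was 0.03 for PPL (95% interval -0.0714 to 0.129, limma, adjusted p = 0.719). For EVPL it was 0.02 (95% interval -0.0683 to 0.112, limma, adjusted p = 0.761). These intervals leave room for changes of PPL from -4.83% to 9.32% and of EVPL from -4.62% to 8.10%. Without NC replicate 2 the log2 fold change of PPL was 0.035 (limma, adjusted p = 0.69). That of EVPL was 0.015 (limma, adjusted p = 0.8645). Leaving out each library in turn gave 0.0057 to 0.044 for PPL and 0.010 to 0.043 for EVPL. Neither gene was called in any of the 17 alternative settings.

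**Figure D2:**
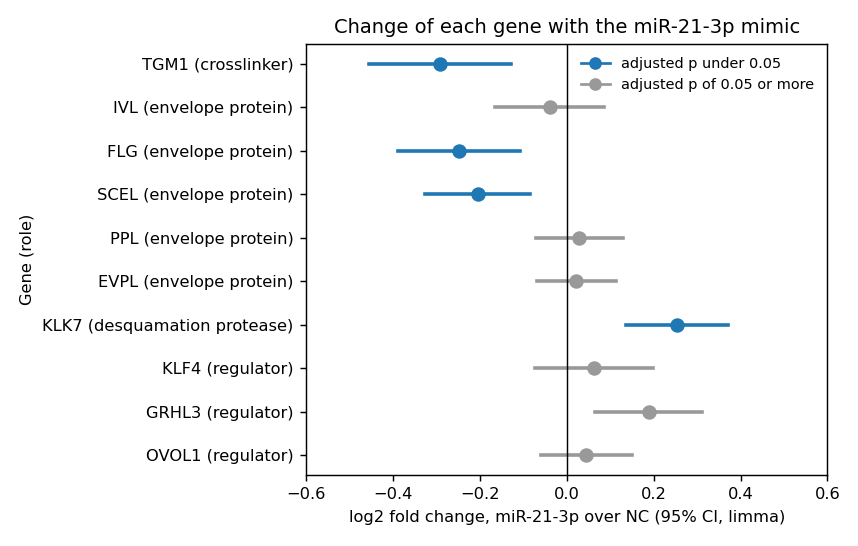
Log2 fold change of each gene, miR-21-3p over NC, on log2(normalised count + 1) (horizontal axis) with its 95% confidence interval from limma (lines), by gene and role (vertical axis). Blue marks an adjusted p under 0.05. TGM1 at -0.29, FLG at -0.25 and SCEL at -0.21 lie left of 0 with intervals that leave it out, KLK7 lies right of 0 at 0.25, and the interval of GRHL3 leaves 0 out although its adjusted p is 0.0528 (limma).

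KLK7 encodes kallikrein-related peptidase 7, a chymotrypsin-like serine protease that cuts corneodesmosome proteins during shedding. KLK7 had normalised counts of 3070, 3310 and 3360 with NC and 3670, 4120 and 3830 with miR-21-3p. All mimic values lay above all NC values, with a gap between the groups of 9.55% of the NC mean, the widest of the 10 genes. KLK7 rose by 19.3%, with a 95% interval of 9.92% to 29.4%. Its log2 fold change was 0.25 (SE 0.0541, limma, adjusted p = 0.0154), and 0.27 without NC replicate 2 (limma, adjusted p = 0.00552). The limma adjusted p was 0.0537 without NC replicate 1, 0.0562 without NC replicate 3, 0.0506 without miR-21-3p replicate 3 and 0.103 with a constant variance prior.

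The direction of KLK7 was opposite to that of the called crosslinker and envelope genes, so 1 of its 3 RefSeq windows is shown for comparison with those of FLG, IVL and SCEL. It covers the 250 bases before a KLK7 start at chr19:50983918-50984167 on the minus strand of GRCh38.p14, and it has no capitals because no match was found.
KLK7: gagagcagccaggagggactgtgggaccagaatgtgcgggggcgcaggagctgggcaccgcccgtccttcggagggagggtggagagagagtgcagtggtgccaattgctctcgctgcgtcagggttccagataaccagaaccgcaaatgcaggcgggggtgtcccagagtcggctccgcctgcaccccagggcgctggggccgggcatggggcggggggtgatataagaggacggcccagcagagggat

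None of the KLK7 windows held the AP-1 letters TGANTCA, the core promoter letters TATAAA, the grainyhead letters AACCNGTT or the KLF letters GGGNGTGG on either strand. That says only that these letters are not in these windows. The KLK7 window shown had 67.2% G and C and the others of this gene 64.0% and 61.2%, against 45.6% for FLG, 53.2% for IVL and 37.6% for SCEL. The KLF4 window had 69.2% and also held none of these letters, and the GRHL3 windows had 50.8% and 52.0%. Neither KLF4 nor GRHL3 was called with all libraries. The median of all windows was 58.0%.

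KLF4 encodes a zinc finger factor required for the barrier in late differentiation. Its normalised count was 819, 776 and 816 with NC and 860, 876 and 784 with miR-21-3p. The groups overlapped, with miR-21-3p replicate 3 among the NC values. KLF4 had a log2 fold change of 0.06 (95% interval -0.0729 to 0.198, limma, adjusted p = 0.546). Without NC replicate 2 it was 0.037 (limma, adjusted p = 0.751), and leaving out each library in turn gave 0.031 to 0.111.

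GRHL3 encodes a grainyhead factor that acts in late differentiation and is known for its control of TGM1 in mouse skin. GRHL3 had normalised counts of 1080, 1190 and 1180 with NC and 1350, 1260 and 1320 with miR-21-3p. All mimic values lay above all NC values, with a gap of 6.09% of the NC mean, yet the gene just missed the threshold. The log2 fold change was 0.19 (SE 0.0570, 95% interval 0.0649 to 0.312, limma, adjusted p = 0.0528). Without NC replicate 2 it was 0.21 and was called (limma, adjusted p = 0.0266), the only one of 17 alternative settings to do so, over a range of adjusted p up to 0.196. Of its 2 RefSeq windows, 1 held a pair of overlapping GGGNGTGG matches on the reverse strand, at 119 to 112 and 112 to 105 bases before the start. Of all windows 15.7% held these letters, and 19.5% of those of genes tested. The grainyhead letters AACCNGTT were in 1.49% of all windows and 1.2% of those of genes tested, and in no window of the 6 matched genes.

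OVOL1 encodes a zinc finger repressor that moves keratinocytes from proliferation to differentiation. Its normalised count was 2710, 2770 and 2850 with NC and 2720, 2970 and 2910 with miR-21-3p. The groups overlapped through miR-21-3p replicate 1. The log2 fold change was 0.05 (95% interval -0.0597 to 0.150, limma, adjusted p = 0.577). Without NC replicate 2 it was 0.044 (limma, adjusted p = 0.620), and leaving out each library in turn gave 0.019 to 0.083. In GENCODE 29, 27.1% of its exonic bases lie opposite exons of an antisense gene, AP001266.1, under the same limit on strand as FLG.

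Levels were compared between genes per kilobase of exon, from the union of annotated exons in GENCODE 29. On that scale the NC means ran from 4369 for IVL and 3856 for PPL through 1429 for SCEL, 1334 for KLK7 and 1170 for EVPL to 851 for TGM1 and 721 for OVOL1. The lowest were FLG at 302, GRHL3 at 292 and KLF4 at 220. Neighbours in this order had separate NC ranges except SCEL with KLK7 and FLG with GRHL3, whose NC values overlapped. With miR-21-3p the mean level per kilobase was 1591 for KLK7 and 1239 for SCEL, and 332 for GRHL3 and 253 for FLG.

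All 10 genes lay above the middle of the genes tested. Of 14444 tested genes with an annotated length, 99.0% had a lower NC level per kilobase than IVL, 90.8% a lower level than TGM1 and 61.0% a lower level than KLF4. Set by the size of the change, 86.7% of genes tested had a smaller absolute log2 fold change than TGM1 and 82.7% a smaller one than KLK7. For EVPL that share was 11.1%. FLG had the longest exonic sequence of the 10, at 12.7 kb, and 70.0% of genes had a lower level per kilobase.

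**Figure D3:**
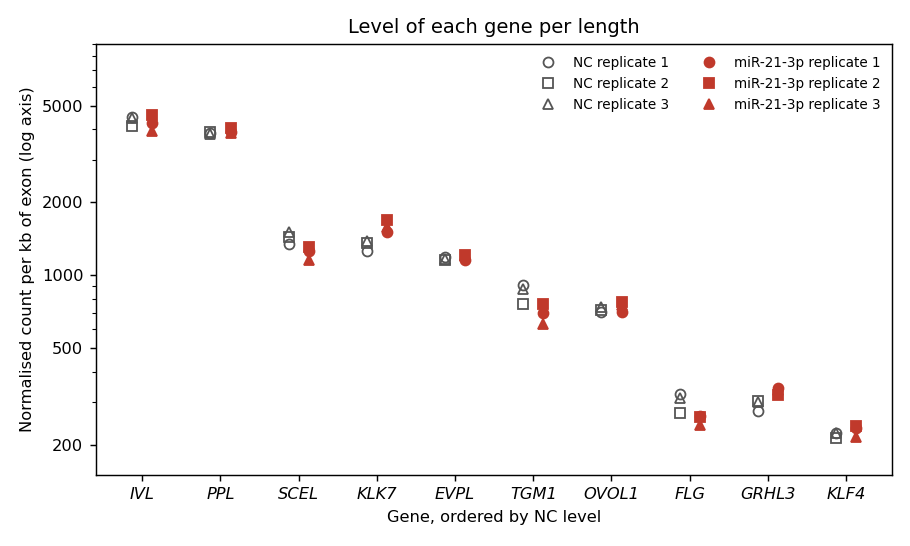
Normalised count per kilobase of exon (vertical log axis) of each gene in each library, with genes on the horizontal axis in order of the NC mean. Open grey symbols are NC libraries and filled red symbols are miR-21-3p libraries. The genes span from 4369 for IVL to 220 for KLF4 in NC means, a range far wider than any difference between the groups.

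Members of 1 gene family were compared within each library as ratios of normalised counts, 4 ratios in all, by exact two-sided permutation tests whose smallest possible p is 0.1 with 3 against 3. These ratios take no account of gene length and are compared between groups only. PPL over EVPL was 3.33, 3.44 and 3.35 with NC and 3.45, 3.44 and 3.27 with miR-21-3p, and the groups overlapped (log2 difference 0.01, exact p = 0.8, adjusted 0.8). KLK7 over KLK5, a trypsin-like kallikrein that activates KLK7, was 0.469, 0.474 and 0.519 with NC and 0.533, 0.568 and 0.549 with miR-21-3p. The groups of this ratio did not overlap (log2 difference 0.18, exact p = 0.1, adjusted 0.2). GRHL3 over GRHL1 was 0.864, 0.838 and 0.837 with NC and 0.877, 0.894 and 0.857 with miR-21-3p, and the groups overlapped (log2 difference 0.05, exact p = 0.2, adjusted 0.267).

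OVOL1 over OVOL2 differed most among these ratios. It was 4.14, 5.07 and 4.76 with NC and 5.62, 6.49 and 7.20 with miR-21-3p. All mimic ratios lay above all NC ratios, with a log2 difference of 0.46 (exact permutation p = 0.1, adjusted 0.2), which cannot pass a threshold of 0.05 at this group size. Most of this difference lay in OVOL2, a paralogue that represses mesenchymal genes in epithelia. Its normalised count was 655, 546 and 599 with NC and 484, 458 and 404 with miR-21-3p, without overlap (log2 fold change -0.42, limma, adjusted p = 0.0148).

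**Figure D4:**
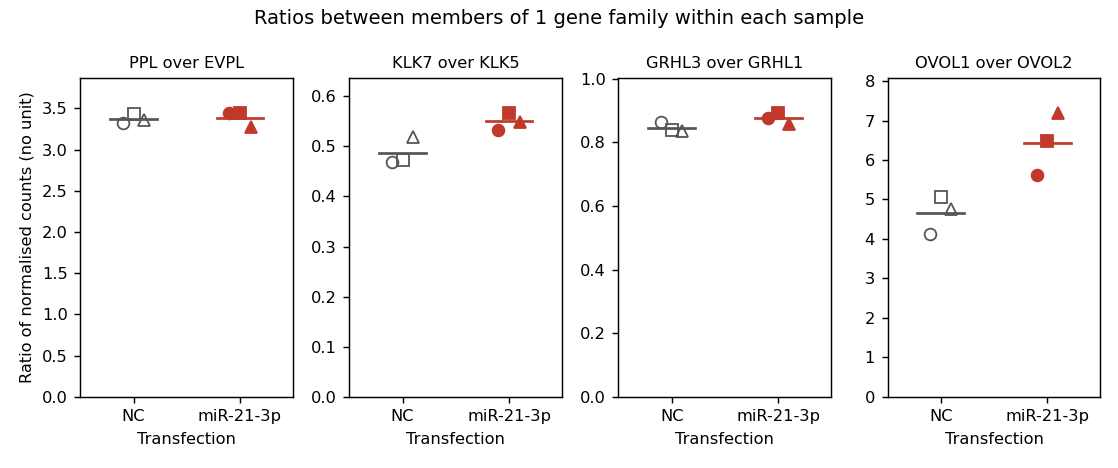
Ratio of the normalised counts of a pair of family members in each library (vertical axis, no unit, starting at 0) for NC and miR-21-3p (horizontal axis), in 4 panels. Points are libraries with shape as replicate number and bars are means. The red points lie above the grey points in the OVOL1 over OVOL2 panel, 5.62 to 7.20 against 4.14 to 5.07, and in the KLK7 over KLK5 panel, and overlap them in the PPL over EVPL and GRHL3 over GRHL1 panels.

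The 10 genes were set beside 6 lists of related genes with 196 names in all. A row was present for 127 of these, 126 passed the filter, and the rest, LORICRIN and TGM3 among them, were not analysed here. Of the 126, 8 were called higher and 16 lower, which is 19.0% against 10.8% of all genes tested, with a median log2 fold change of -0.02 against 0.00439. The lists were chosen in the same way as the 10 genes, with results known, so this share and those of the single lists below are descriptions, and nothing particular to the lists is read from them. Without NC replicate 2 the counts were 12 and 24, with 1627 and 1330 among all genes. They were 2 higher and 5 lower without NC replicate 1 (all genes 313 and 229), 1 and 1 without NC replicate 3 (95 and 81), 2 and 3 without miR-21-3p replicate 1 (146 and 131), 1 and 4 without miR-21-3p replicate 3 (202 and 163), and 1 and 0 with a constant variance prior (24 and 26). Which related genes lost their call when a library was left out is not given, so a call named below may rest on a single library. KLK9 was at 0 in all 6 libraries and was not tested.

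Of 52 further envelope proteins and crosslinkers, 11 had a row, and limma called 3 higher and 1 lower. That is 36.4% of those tested against 10.8% of all genes, with a median log2 fold change of -0.01. With edgeR the counts were 3 and 1 (5.95% and 5.16% of all genes), and with DESeq2 2 and 1 (6.14% and 5.03%). ANXA1, a calcium-binding protein found in the envelope, lay at 23500, 25500 and 26000 with NC and 28800, 30600 and 29200 with miR-21-3p, and all mimic values were higher (log2 fold change 0.24, limma, adjusted p = 0.0165). LCE1E, a late envelope protein, rose from 33.3, 37.1 and 31.2 to 51.0, 56.3 and 52.0, without overlap (log2 fold change 0.64, limma, adjusted p = 0.0346). It has close paralogues between which reads could be split, so its value is uncertain. LYPD3 also rose (log2 fold change 0.15, limma, adjusted p = 0.0382).

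RPTN, which encodes repetin of the fused S100 family to which FLG belongs, was the envelope gene called lower. It lay at 148, 75.2 and 142 with NC and 72.4, 70.7 and 50.3 with miR-21-3p. NC replicate 2 was close to the mimic values while the other NC libraries lay well above them. The log2 fold change of RPTN was -0.86 (limma, adjusted p = 0.0379). SPRR1B, a small proline-rich crosslinking bridge, had a log2 fold change of -0.39 that did not pass (limma, adjusted p = 0.158).

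Of 34 desquamation and filaggrin processing genes, 24 had a row, 23 were tested, 2 were called higher and 3 lower, 21.7% of those tested against 10.8% of all genes, with a median log2 fold change of -0.03. On the recovered reads edgeR called 1 higher and 3 lower (5.95% and 5.16% of all genes), and DESeq2 2 and 3 (6.14% and 5.03% of all genes). KLK13, a kallikrein of the same cluster as KLK7, fell from 1220, 1080 and 1130 to 903, 932 and 853, without overlap (log2 fold change -0.35, limma, adjusted p = 0.0085). KLK11 fell too, from 938, 798 and 916 to 719, 702 and 676 (log2 fold change -0.34, limma, adjusted p = 0.0147). The kallikreins thus did not move one way, since KLK7 rose, KLK11 and KLK13 fell, and KLK5 had a log2 fold change of 0.08 that did not pass (limma, adjusted p = 0.284). The 3 other scalings tried cannot test these directions, since each moves all genes alike and by little. Their median log2 fold change over all genes ran from -0.00135 to 0.0091.

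Genes that act on filaggrin or on proteases also appeared in that list. PADI1, a peptidylarginine deiminase that citrullinates filaggrin and keratin, lay at 1360, 1050 and 1280 with NC and 1050, 1010 and 888 with miR-21-3p. NC replicate 2 equalled miR-21-3p replicate 1 to the 3 digits given, so the groups overlapped, although the gene was called (log2 fold change -0.32, limma, adjusted p = 0.0429). CTSC, a lysosomal protease that activates other proteases, rose by 0.23 on the log2 scale (limma, adjusted p = 0.0210), and SERPINB7, a protease inhibitor of the skin, had a log2 fold change of 0.15 (limma, adjusted p = 0.0456) that was called in only 1 of the 3 other scalings. SPINK5, the inhibitor of KLK5 and KLK7, lay at 415, 500 and 423 with NC and 485, 431 and 525 with miR-21-3p, and the groups overlapped (log2 fold change 0.11, limma, adjusted p = 0.484).

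Of 35 barrier lipid genes, 27 were tested, and limma called 2 higher and 1 lower. That is 11.1% of those tested, close to the 10.8% of all genes, with a median log2 fold change of 0.01. Both edgeR (5.95% and 5.16% of all genes) and DESeq2 (6.14% and 5.03%) called 2 higher and 2 lower. DEGS1, a desaturase of ceramide synthesis, rose from 1020, 1080 and 1060 to 1320, 1300 and 1350, without overlap (log2 fold change 0.33, limma, adjusted p = 0.00508). SLC27A4, a fatty acid transporter needed for the skin barrier, rose from 1960, 1980 and 1840 to 2320, 2190 and 2500 (log2 fold change 0.28, limma, adjusted p = 0.0131). PSAP, the precursor of proteins that help enzymes act on sphingolipids, had a log2 fold change of -0.20 (limma, adjusted p = 0.0489).

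Of 45 further regulators of differentiation, 38 were tested, 7 were called lower and 0 higher by limma, 18.4% of those tested against 10.8% of all genes called in either direction and 4.66% called lower, with a median log2 fold change of -0.03. At an unadjusted p under 0.05, limma counted 5 higher and 10 lower of the 38, against 15.3% and 13.2% of all genes. After adjustment edgeR called 0 higher and 7 lower (5.95% and 5.16% of all genes), and DESeq2 called 1 higher and 8 lower (6.14% and 5.03% of all genes). The kinases PRKCD and RIPK4, which promote keratinocyte differentiation, were among the genes that fell. PRKCD went from 1640, 1390 and 1490 to 1210, 1230 and 1040 (log2 fold change -0.38, limma, adjusted p = 0.0122). RIPK4 went from 10300, 8970 and 10100 to 7810, 8540 and 7670 (log2 fold change -0.29, limma, adjusted p = 0.0137). Neither gene had overlapping groups.

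The other regulators that fell were transcription factors. ELF3, an epithelial ETS factor, had a log2 fold change of -0.22 (limma, adjusted p = 0.0186), ARNT, the partner of the aryl hydrocarbon receptor, one of -0.28 (limma, adjusted p = 0.0275), and KLF3 one of -0.15 (limma, adjusted p = 0.0493). MAF, a factor of late differentiation, lay at 129, 74.2 and 117 with NC and 69.3, 65.6 and 53.8 with miR-21-3p, with NC replicate 2 close to the mimic values (log2 fold change -0.72, limma, adjusted p = 0.0375). OVOL2 was the last of the 7.

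Among related factors, ZNF750, GRHL1 and TP63 were not called. ZNF750, which acts with KLF4, lay at 32.3, 39.1 and 37.1 with NC and 60.2, 52.2 and 44.0 with miR-21-3p, without overlap but at low counts (log2 fold change 0.51, limma, adjusted p = 0.0925). GRHL1, a grainyhead factor of desmosomal cadherins, had a log2 fold change of 0.14 (limma, adjusted p = 0.164). TP63, the master regulator of the epidermal lineage, had one of -0.13 (limma, adjusted p = 0.103).

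Of 16 tight junction genes, 14 were tested, and limma called 1 higher and 1 lower. That is 14.3% of those tested against 10.8% of all genes, with a median log2 fold change of -0.02. With edgeR the counts were 1 and 1 (5.95% and 5.16% of all genes), and with DESeq2 1 and 2 (6.14% and 5.03%). TJP3, a junction scaffold, fell from 4050, 3500 and 3870 to 2920, 3250 and 2690 (log2 fold change -0.37, limma, adjusted p = 0.0106). CLDN4, a claudin of the granular layer, rose from 8340, 9250 and 8330 to 9710, 10200 and 10800 (log2 fold change 0.25, limma, adjusted p = 0.0184). Neither gene had overlapping groups.

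Of 14 spinous and basal layer genes, 13 were tested, 3 were called lower and 0 higher by limma, 23.1% of those tested against 10.8% of all genes called in either direction and 4.66% called lower, with a median log2 fold change of -0.05. At an unadjusted p under 0.05, limma counted 1 higher and 3 lower of the 13, against 15.3% and 13.2% of all genes. Both edgeR (5.95% and 5.16% of all genes) and DESeq2 (6.14% and 5.03%) called 0 higher and 3 lower after adjustment. KRT15, a basal keratin, fell from 95100, 91500 and 99500 to 77100, 79400 and 71600, without overlap (log2 fold change -0.33, limma, adjusted p = 0.0104). DST, the hemidesmosome plakin, had a log2 fold change of -0.17 (limma, adjusted p = 0.0295). ITGB4 lay at 21400, 17700 and 19900 with NC and 15900, 17900 and 15400 with miR-21-3p, and these groups overlapped through NC replicate 2.

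The paired keratins of the spinous layer were not called. KRT10 lay at 4300, 3530 and 4750 with NC and 5700, 5170 and 4520 with miR-21-3p, with overlap (log2 fold change 0.30, limma, adjusted p = 0.0736). KRT1 lay at 4280, 2530 and 3730 with NC and 3940, 3460 and 2670 with miR-21-3p (log2 fold change -0.05, limma, adjusted p = 0.870). Its coefficient of variation in the NC libraries, 25.5%, exceeded that of each of the 10 genes, of which FLG was the highest at 9.42%.

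**Figure D5:**
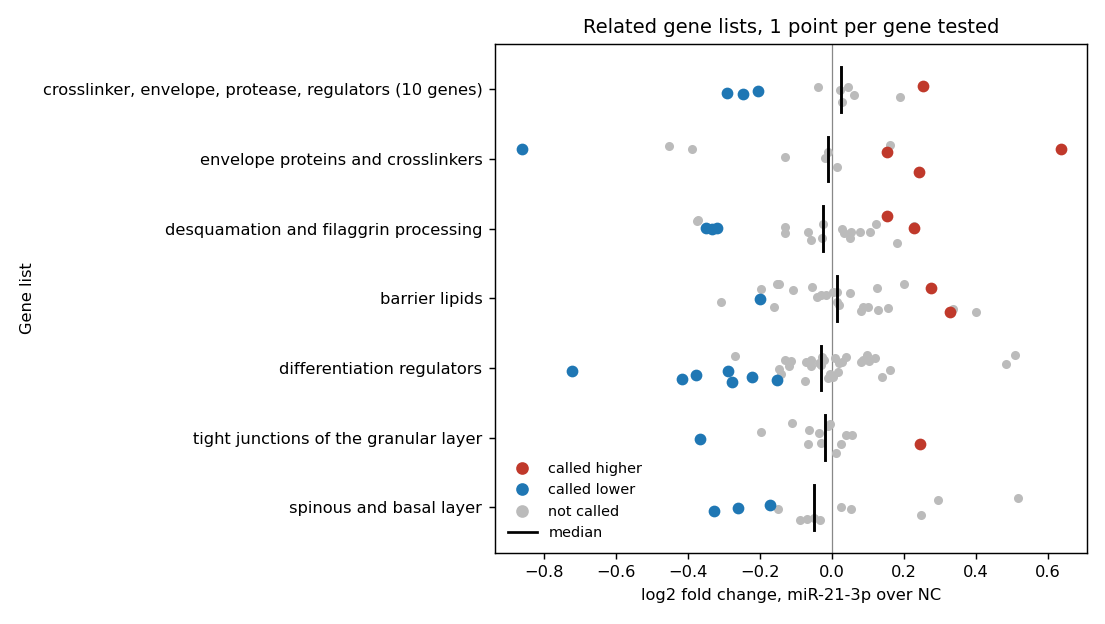
Log2 fold change, miR-21-3p over NC (horizontal axis), of each tested gene in the 10 genes and in the 6 related lists (vertical axis), 1 point per gene. Red points were called higher, blue points lower and grey points were not called, and black bars are medians. The medians lie between -0.05 for the spinous and basal layer and 0.03 for the 10 genes, and blue points reach -0.86 for RPTN.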

How the data were processed

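HaCaT RNA was extracted with a kit that keeps small RNAs, and per the labels stranded mRNA libraries were made from polyA RNA. The study's methods instead speak of small RNA libraries, and the labels were followed here. The authors' processing notes name bcl2fastq 2.18.12, cutadapt 1.15, TopHat2 2.1.1, featureCounts of Subread 1.5.2 and DESeq2. The genome build, the annotation and the strand setting of the counting are not given in the sources used here. The deposited signal values are gene counts that the authors divided by 1 size factor per sample and wrote with 3 significant digits.

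Counts were planned for edgeR, but the table holds normalised values, so limma 3.58.1 in R 4.3.3 was fitted to log2(value + 1), with a variance prior that follows the mean. A fold change is thus on the log2(value + 1) scale, which understates the change of low genes. Genes needed a value of at least 10 in at least 3 samples, p-values were adjusted by Benjamini-Hochberg over 14795 genes, and a gene was called at an adjusted p under 0.05. Of values up to 20 reads, 100% were whole multiples of the value of 1 read in their library, within 0.1 of a read. The reads recovered that way gave 1644 called genes with edgeR 4.0.16 (TMM, quasi-likelihood test) and 1592 with DESeq2 1.42.0, against 1593 with limma, and limma and edgeR shared 1559. The scripts were tested on simulated data.

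The named genes are the 10 members, every called gene of the lists (at most 8 per list, 30 in all), and LORICRIN, TGM3, SPRR1B, KRT1, KRT10, SPINK5, KLK5, ZNF750, GRHL1, OVOL2 and TP63. The members and lists were chosen with earlier results of these data known. Alternatives were the replicate block, DESeq2, RLE factors, library size alone, no filter, 1 CPM in at least 3 samples and leaving out each library. edgeR, TMM, pseudocounts of 0.5 and 10 and a constant variance prior were chosen after seeing the data. Marker lists cover keratinocytes, melanocytes, fibroblasts, immune and endothelial cells. Exon lengths are from GENCODE 29 and promoters from RefSeq on GRCh38.p14, neither of which need be the authors' annotation.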

Additional observations from a re-analysis of the deposited data

How the results depend on the processing

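Over 17 alternative settings the log2 fold changes of TGM1, FLG, SCEL and KLK7 kept their direction. The replicate block, the filters and the variance prior cannot alter a fold change, and other scalings and pseudocounts moved it little. The direction was thus tested mainly by leaving out a library. All 4 were called under DESeq2, edgeR, RLE factors, TMM factors, library size alone, both other filters and both other pseudocounts. With a constant variance prior, 24 genes were called higher and 26 lower in all, 0 and 0 of the 10 genes (limma, 2 and 3 at an unadjusted p under 0.05, against 13.4% and 11.7% of all genes), and 1 and 0 of the related genes. The cause was not tested. Leaving out 1 library gave 95 to 1627 genes higher and 81 to 1330 lower, 0 to 2 of the 10 genes higher and 0 to 3 lower, and 1 to 12 related genes higher and 1 to 24 lower. The lowest counts came without NC replicate 3 and the highest without NC replicate 2. The log2 fold change of IVL ranged from -0.0944 to 0.0134 and was positive without miR-21-3p replicate 3. Fewer samples entered those fits.

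With the replicate block, 681 genes were called higher and 512 lower, 1 and 2 of the 10 genes (SCEL, limma adjusted p = 0.0582) and 6 and 12 related genes. Same-numbered libraries correlated at -0.0774, -0.295 and -0.315 in their deviations from the group means, and no library correlated best with its own number. The best matches were NC replicate 1 with miR-21-3p replicate 2 (0.234), NC replicate 2 with miR-21-3p replicate 3 (0.43) and NC replicate 3 with miR-21-3p replicate 1 (0.271). Deviations within a group of 3 samples depend on each other, so these correlations cannot show whether samples were paired, by number or otherwise. Each of the 10 genes was covered by an estimated 4947 reads or more. Values with 3 digits and groups of 3 samples limit how small a change could be called.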
